A study of Arabidopsis thaliana with 18 samples.

Results

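Low blue light was set against control light in petioles, the leaf stalks of the rosette, of Arabidopsis thaliana accession Col-0. The comparison used 6 of the 18 arrays of the series, 3 from plants in low blue light and 3 from plants in control light. It covered all 22746 probe sets of the Affymetrix ATH1 array that are not controls, of 22810 on the array. The low blue plants stood singly, were 29 d old at harvest and had spent 24 h in light depleted in blue. The control light plants were also single, 29 d old and harvested after 24 h, without that depletion. All of these plants had been stratified for 3 d at 4 °C, potted after 10 d and raised to an age of 28 d at 20 °C and 70% relative humidity, with days of 9 h at a photon flux of 180 µmol per m2 per s and nights of 15 h. The other groups used here, each of 3 arrays, were low blue combined with a low ratio of red to far-red light (called combined), low R:FR alone, both in single plants of 29 d after 24 h, a canopy of 2066 plants per m2, and single plants set against that canopy, both 37 d old. The labels give the blue light level of no group, and they do not say how many plants made up a replicate of the light groups, so the p-values measure the spread between these samples, which may be technical.

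Plants read blue light through cryptochromes and phototropins. Active cryptochromes restrain the elongation of stems and petioles, in part by keeping the transcription factors HY5 and HYH stable, and small BIC proteins in turn inhibit the cryptochromes. Light that has passed through neighbouring leaves is poor in blue and red and rich in far-red, and a loss of blue light can by itself set off part of the shade avoidance response, in which petioles lengthen and leaves lift. Flavonoid synthesis and genes for protection against excess light are known to be driven by blue light in leaves.

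After 24 h of low blue light, transcripts for a chloroplast protein of cold acclimation, a light-harvesting protein, a thiamine synthesis enzyme, a flavonol glycosyltransferase and the cryptochrome inhibitor BIC2 were lower than in control light. Transcripts for a wall-remodelling enzyme, an energy-sensing kinase subunit, a chlorophyll synthesis enzyme and a bZIP transcription factor were higher. Of the 22746 probe sets, 132 passed the test (limma adjusted p under 0.05), which is 0.58% of them. Higher in low blue were 58 (0.255%) and lower were 74 (0.325%), and 45 changed by at least 1 on the log2 scale, 18 of them higher and 27 lower. The median change over all probe sets was 0.00 on the log2 scale, and 50.3% of them had a positive change. For all 132 the 3 low blue arrays lay on one side of the 3 control light arrays, which held for 11.6% of all probe sets. The 132 were chosen by the difference between these same arrays, so their separation is no further support. Of the 132, 56 could be assigned to 1 gene, 32 higher and 24 lower, and 76 carry no gene name here. Only 14 of the 56 have a symbol and the other 42 are given by their locus. Petioles were measured whole, so fewer cells of a type and less RNA per cell cannot be told apart. The spread behind these calls was estimated over all 18 arrays. With the 6 low blue and control light arrays alone 1 probe set passed, the unnamed 253174_at (log2 change -1.79, limma adjusted p = 0.019), while all 132 had an unadjusted p under 0.05, as 1587 probe sets did. That too rests on the arrays that served to choose the 132.

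**Figure D1:**
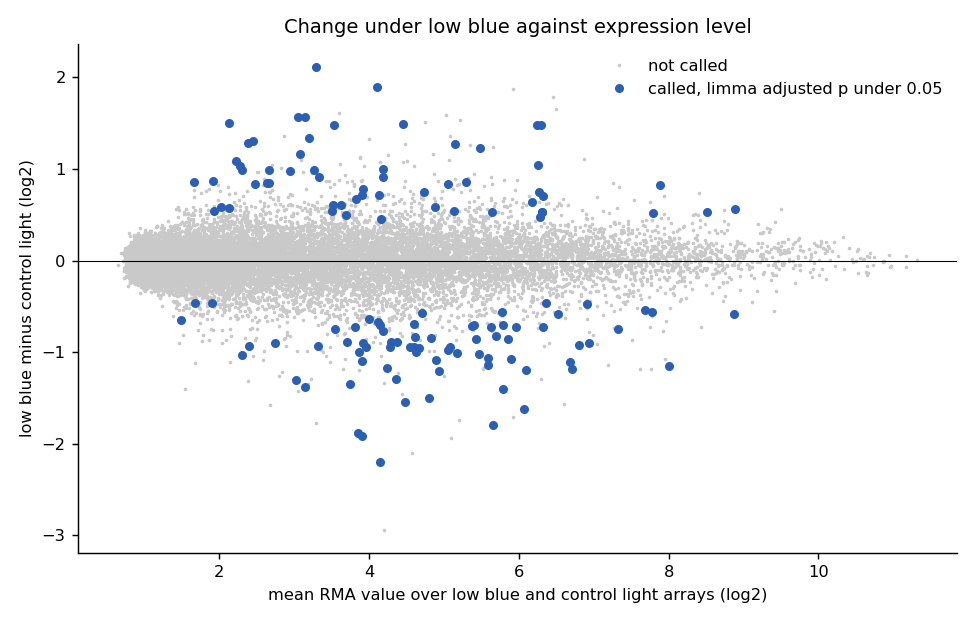
Change under low blue against expression level. The horizontal axis is the mean RMA value over the 6 arrays (log2), the vertical axis is low blue minus control light (log2), grey points are the probe sets that did not pass the test and blue points the 132 that did. The changes of the 132 run from -2.19 to 2.11, and 8 of them have a mean over the 18 arrays below 2, where differences are compressed.

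The largest decrease among called genes with a name or locus was that of COR15A (AT2G42540), which encodes a chloroplast protein that stabilises membranes during freezing. On the log2 scale of the deposited RMA values it had 5.26, 5.07 and 5.46 on the low blue arrays, against 7.38, 7.06 and 6.20 on the control light arrays. The groups did not overlap, and control light replicate 3 was the lowest of its group (log2 change -1.62 ± 0.22, SE; limma adjusted p = 0.00375, a 3.07-fold difference). The other members of the cold and water deficit list were not called, among them its close relative COR15B (log2 change -0.46 ± 0.14) and the dehydrin gene COR47 (0.35 ± 0.14). The arrays overlapped for COR47 and not for COR15B.

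LHCB4.3 (AT2G40100) encodes a minor antenna protein of photosystem II that is known to be made in strong light. Its values were 4.88, 5.27 and 5.03 in low blue, against 6.17, 6.29 and 5.91 in control light. The low blue arrays all lay below the control light arrays (log2 change -1.07 ± 0.16, limma adjusted p = 0.00447). The closely related LHCB4.1 and LHCB4.2, which are among the brightest genes on the arrays, had changes of -0.09 ± 0.08 (95% interval -0.27 to 0.09) and 0.25 ± 0.10 (0.03 to 0.47), and neither was called.

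THIC (AT2G29630), the enzyme that makes the pyrimidine part of thiamine in the chloroplast, had 4.11, 4.1 and 4.19 in low blue, against 5.02, 5.24 and 4.98 in control light. The gap between the groups was wider than the range of either (log2 change -0.95 ± 0.15, limma adjusted p = 0.00681). UGT78D1 (AT1G30530) transfers rhamnose to flavonols, which screen ultraviolet light. It had 4.95, 4.28 and 4.58 in low blue, against 5.91, 5.31 and 5.42 in control light, again without overlap (-0.95 ± 0.20, 0.0436). AT3G44450, known as BIC2, an inhibitor of cryptochromes whose transcript is induced by blue light, had 4.32, 4.83 and 4.57 in low blue, against 5.11, 5.70 and 5.82 in control light. Its lowest control light array still lay above its highest low blue array (-0.97 ± 0.19, 0.029). COR15A and LHCB4.3 passed the test without each of the 6 arrays in turn. THIC missed it without control light replicate 2 (adjusted p = 0.055), BIC2 without control light replicate 2 or 3 or low blue replicate 1 or 3 (0.0741 to 0.134), and UGT78D1 without any array but low blue replicate 1 (0.058 to 0.133).

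The remaining genes among the 10 largest decreases have a locus only, with the exception of PDC2 (AT5G54960), a pyruvate decarboxylase of alcoholic fermentation. PDC2 had 2.59, 2.94 and 3.01 in low blue, against 3.86, 3.42 and 4.07 in control light, a change of -0.94 ± 0.19 (limma adjusted p = 0.0329). AT3G56290 had 4.03, 3.79 and 3.31 in low blue, against 5.68, 5.44 and 4.65 in control light. This was the second largest decrease among the 56 called genes (-1.54 ± 0.24, 0.00648), and control light replicate 3 was again the lowest of its group. AT1G06000 had 3.44, 4.18 and 3.53 in low blue, against 5.12, 4.93 and 4.97 in control light (-1.29 ± 0.18, 0.00407). AT3G57020 had 3.79, 4.74 and 4.02 in low blue, against 5.23, 5.07 and 5.12 in control light (-0.96 ± 0.20, 0.039). In both of these low blue replicate 2 was the highest of its group, and the groups did not overlap. AT3G24190 had 3.39, 4.02 and 4.04 in low blue, against 4.59, 4.67 and 5.01 in control light (-0.94 ± 0.20, 0.0436). AT1G06000 passed without each array in turn. AT3G56290 missed the threshold without control light replicate 2 (0.052), PDC2 without any array but that one (0.0538 to 0.12), and AT3G57020 and AT3G24190 without any array but low blue replicate 2 (up to 0.137 and 0.144).

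Further genes fell by less, among them 3 with a symbol. The serine carboxypeptidase-like gene scpl46 (AT2G33530) had 4.00, 4.02 and 3.77 in low blue, against 4.85, 4.92 and 4.70 in control light (log2 change -0.89 ± 0.15, limma adjusted p = 0.00927). AOR (AT1G23740), a chloroplast oxidoreductase that detoxifies reactive carbonyls, had 6.13, 6.41 and 6.17 in low blue, against 6.96, 6.85 and 6.63 in control light (-0.58 ± 0.12, 0.0342). SIR (AT5G04590), the sulfite reductase of sulfate assimilation, had 6.69, 6.78 and 6.54 in low blue, against 7.14, 7.13 and 7.16 in control light. Its change of -0.47 ± 0.10 (0.0424) was among the smallest that passed. AT1G73650 was lower by a little more (-0.73 ± 0.10, 0.00407) and passed without each array in turn, whereas scpl46 lost its call without 2 of the 6 arrays, AOR without 4 and SIR without 5.

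Among called genes with a name or locus the largest increase was that of AT1G35612, which had 3.58, 4.39 and 3.81 in low blue, against 2.03, 2.35 and 2.71 in control light. The lowest low blue array lay above the highest control light array (log2 change 1.57 ± 0.21, limma adjusted p = 0.00241, 2.96-fold). AT4G27450 had 2.68, 2.80 and 3.15 in low blue, against 1.36, 1.28 and 1.49 in control light, and AT1G25230 had 6.76, 7.07 and 7.26 in low blue, against 5.32, 5.86 and 5.46 in control light. Both had the smallest adjusted p of the 56 genes, 0.000358, with changes of 1.5 ± 0.16 and 1.48 ± 0.16. These 3 genes passed the test without each array in turn.

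Genes with a named product came next. BZIP61 (AT3G58120), a bZIP transcription factor gene, had 5.25, 4.61 and 5.74 in low blue, against 3.97, 4.08 and 3.1 in control light (log2 change 1.49 ± 0.28, limma adjusted p = 0.026). AKINBETA1 (AT5G21170) encodes a β subunit of SnRK1, the kinase that is active when sugars are scarce. It had 4.3, 3.59 and 3.73 in low blue, against 2.15, 2.38 and 3.08 in control light, and the groups lay apart although each spanned more than the gap between them (1.34 ± 0.22, 0.0119). PORB (AT4G27440), which reduces protochlorophyllide in the light, had 6.68, 6.56 and 7.09 in low blue, against 5.90, 5.59 and 5.73 in control light (1.04 ± 0.22, 0.042). AT1G69570, known as CDF5, a DOF transcription factor of the photoperiod pathway, had 3.52, 2.97 and 2.99 in low blue, against 2.2, 2.02 and 2.28 in control light. Every low blue array was above every control light array (0.99 ± 0.16, 0.00927). BZIP61 lost its call without control light replicate 2 or 3 or low blue replicate 1 or 3 (0.052 to 0.109), AKINBETA1 without control light replicate 2 (0.0701), PORB without any array but low blue replicate 2 (0.0607 to 0.173), and CDF5 without control light replicate 2 (0.0646).

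Also higher were EXGT-A3, CSLA03 and RALFL22. EXGT-A3 (AT2G01850), also known as XTH27, belongs to the enzymes that cut and rejoin wall xyloglucan. It had 6.81, 6.63 and 6.61 in low blue, against 6.16, 6.04 and 5.73 in control light (log2 change 0.71 ± 0.12, limma adjusted p = 0.00927) and passed without each array in turn. CSLA03 (AT1G23480), of the family of mannan synthases, had 3.98, 3.53 and 3.76 in low blue, against 3.08, 2.90 and 2.34 in control light (0.98 ± 0.20, 0.0344). RALFL22, which encodes a secreted RALF peptide of a family that signals at the cell wall, had 6.38, 6.38 and 6.75 in low blue, against 5.65, 5.87 and 6.05 in control light. Its change was smaller, 0.64 ± 0.14 (0.046). None of the 3 genes had overlapping groups. CSLA03 lost its call without 4 of the 6 arrays (up to 0.122) and RALFL22 without 5 (up to 0.178).

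Among the 10 largest increases were also 4 loci without a symbol. AT2G30930 had 6.95, 6.69 and 7.30 in low blue, against 5.02, 5.48 and 6.02 in control light (log2 change 1.48 ± 0.30, limma adjusted p = 0.0329). AT5G11070 had 6.17, 6.19 and 5.94 in low blue, against 4.93, 4.78 and 4.90 in control light (1.23 ± 0.26, 0.046). The groups were tight for AT5G11070 and wide for AT2G30930, and apart in both. AT4G37240 had 3.38, 3.79 and 3.81 in low blue, against 2.75, 2.34 and 2.38 in control light (1.17 ± 0.23, 0.0299). AT2G27080 had 2.99, 2.32 and 2.99 in low blue, against 1.87, 1.85 and 1.32 in control light (1.08 ± 0.20, 0.0221). Each of these 4 lost its call in at least 4 of the 6 fits that leave out 1 array. Over all 56 named genes, 9 kept the call without each array in turn, 5 lost it in 1 such fit, 3 in 2 or 3 and 39 in 4 or more.

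**Figure D2:**
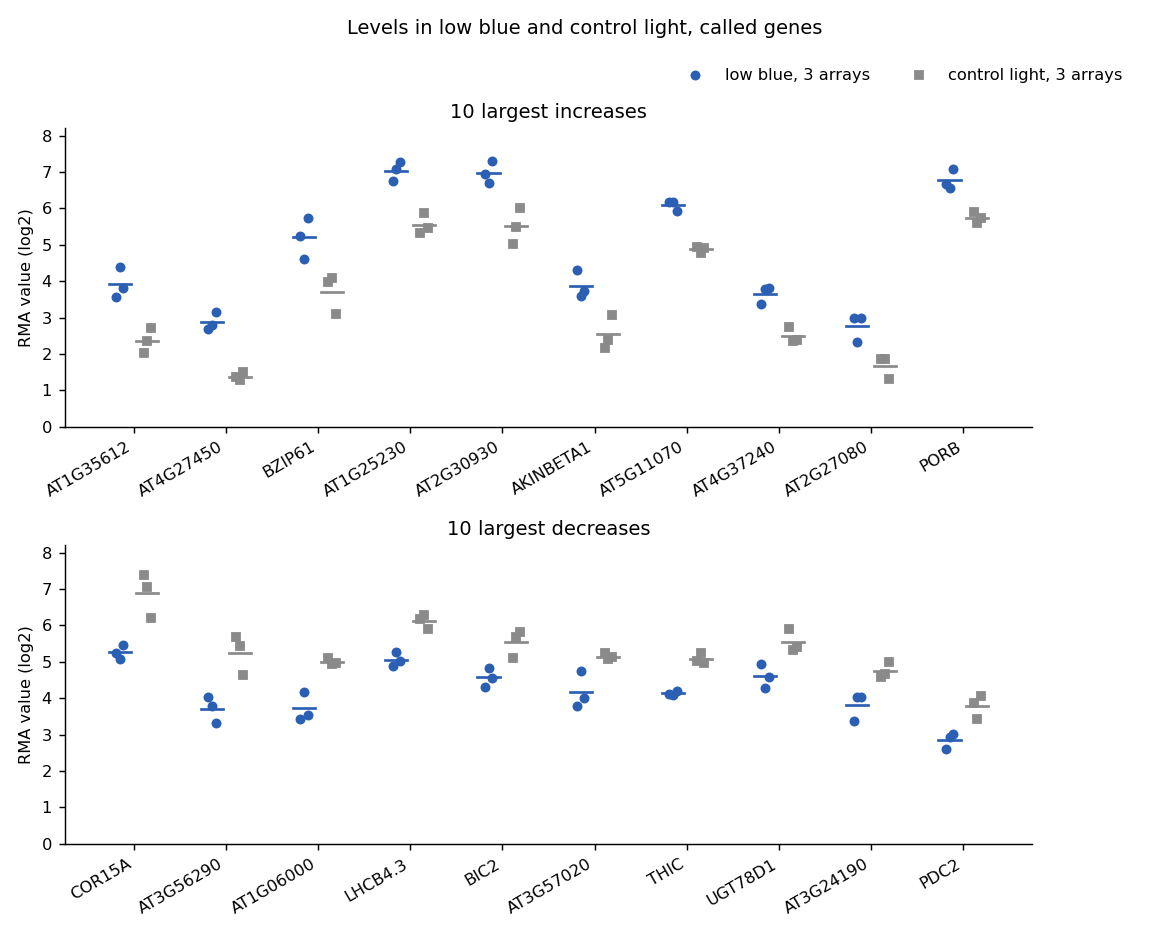
Levels of the 10 called genes with the largest increase (upper panel) and the 10 with the largest decrease (lower panel). The vertical axis is the RMA value (log2), blue circles are the 3 low blue arrays, grey squares the 3 control light arrays and bars the group means. The groups do not overlap for any of the 20 genes, which were chosen on these same arrays. The range within control light is widest for COR15A, AT3G56290 and AT2G30930.

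Gene lists for light signalling, growth, metabolism and cell types were then followed, beginning with the pathways of blue light. The 44 lists hold 839 entries, some genes being in more than 1 list, and 133 different genes among them had a named probe set. Most members were therefore not measured by name. Of the 17 lists with at least 3 measured members, 6 held a called gene, 1 each, and 11 held none. In the list of blue light receptors and their partners 1 of 22 genes was measured by name, AT4G14480 or BLUS1, a kinase of stomatal opening below the phototropins, at a log2 change of 0.17 (limma, not called). The cryptochrome inhibitor BIC2, whose name was added by hand, was not matched to this list. As given above, it was called lower (-0.97 ± 0.19, limma adjusted p = 0.029). HYH (AT3G17609), the close relative of HY5, had 2.28, 2.11 and 2.1 in low blue, against 4.06, 3.1 and 3.11 in control light. The arrays did not overlap, but the change of -1.26 ± 0.29 did not pass (limma adjusted p = 0.063). HYH passed when fitted on the 12 light arrays alone (0.0399) and when dim probe sets were left out (0.0357), as well as with an intensity trend and with a replicate block. It passed in no fit that left out 1 array (adjusted p up to 0.185). The other 2 light signalling genes measured, AFR and FHL, had changes of -0.31 ± 0.19 and -0.02 ± 0.16.

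Of 17 genes listed for the regulation and decoration of flavonoids, 4 were measured by name. UGT78D1 fell and 3 were not called. Genes outside the list, or without a name here, were not considered. UGT78D2 (AT5G17050), which adds glucose to flavonols and anthocyanidins, had 3.86, 4.04 and 3.80 in low blue, against 4.78, 4.88 and 4.25 in control light, a log2 change of -0.74 ± 0.16 that ended just above the threshold (limma adjusted p = 0.0502). Without control light replicate 3 the adjusted p was 0.00995, and without control light replicate 2 it was 0.227. With all arrays kept UGT78D2 passed under array weights and when dim probe sets were left out. UF3GT and UGT78D3 lay near the lower end of the arrays, between 0.98 and 1.51, with changes of 0.20 ± 0.11 and 0.01 ± 0.08. Of 17 flavonoid synthesis genes only 3 were measured by name, so the pathway as a whole was not assessed. Among them CHIL (AT5G05270) is a non-catalytic relative of chalcone isomerase that promotes flavonol production. CHIL had 3.05, 3.20 and 3.52 in low blue, against 4.54, 4.51 and 3.14 in control light. Here control light replicate 3 lay among the low blue arrays (-0.80 ± 0.31, 0.37), and without it CHIL passed (0.0258). Without control light replicate 2 its adjusted p was 0.73. DFR and BAN, which serve anthocyanins and proanthocyanidins, stayed between 0.77 and 1.16 on all 6 arrays.

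In the growth lists EXGT-A3 was the 1 of 10 measured xyloglucan enzymes that rose, 7 of the 10 had a positive change, and the median was 0.16 on the log2 scale. XTH16 had 3.65, 3.13 and 4.14 in low blue, against 3.29, 2.59 and 1.74 in control light, which overlapped (1.1 ± 0.33, limma adjusted p = 0.176). None of 16 measured expansins, the proteins that loosen the wall, was called, with 9 positive changes and a median of 0.03. EXLA1 had 6.12, 4.82 and 5.56 in low blue, against 4.68, 3.36 and 3.91 in control light, and EXPA8 had 6.05, 5.86 and 5.70 in low blue, against 4.29, 5.15 and 5.33 in control light. Neither gene overlapped between the groups, but their changes of 1.52 ± 0.36 and 0.95 ± 0.24 did not pass (0.0731 and 0.0989). EXLA1 passed without control light replicate 1 (0.0384) or without low blue replicate 2 (0.0385), and had 0.303 without control light replicate 2. With all arrays of a fit kept, EXLA1 also passed under array weights, with dim probe sets left out, with an intensity trend and with a replicate block. EXO (AT4G08950), a brassinosteroid-induced gene of cell expansion, had 6.81, 4.5 and 6.16 in low blue, against 4.91, 3.85 and 3.94 in control light. The groups overlapped through low blue replicate 2 (1.59 ± 0.46, 0.162), and without that array EXO passed (0.0119). Without control light replicate 2 its adjusted p was 0.431. Of 9 tubulin and actin genes none was called and 8 had a positive change, with a median of 0.29, the highest of the 17 lists.

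No auxin response gene was called among 4 measured, and their changes lay between 0.06 and 0.28, near the floor of the arrays. The 3 gibberellin receptor genes were not called either, from -0.45 ± 0.15 for GID1A to 0.11 for GID1C. HAT2, an auxin-induced homeodomain gene of shade avoidance and the 1 of 23 shade genes with a named probe set, had a log2 change of 0.22 ± 0.12 (limma adjusted p = 0.652). The clock gene GI had 2.31, 2.35 and 2.09 in low blue, against 2.83, 2.89 and 2.6 in control light, without overlap (-0.53 ± 0.14, 0.132).

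Few genes of the energy and photosynthesis lists were called, but most of their members were not measured by name. The 76 called probe sets without a gene name could hold further members. Of 35 low energy genes 6 were measured by name, and AKINBETA1 was the 1 of these that rose. The other 5, which include enzymes of branched-chain amino acid breakdown, ranged from -0.28 to 0.33 on the log2 scale. None of 10 autophagy genes was called. The largest change among them was that of ATG8E, which had 3.14, 2.37 and 2.05 in low blue, against 1.6, 1.53 and 2.03 in control light (0.80 ± 0.23, limma adjusted p = 0.15). PORB was the 1 of 5 chlorophyll synthesis genes that rose, and the other 4 had changes between -0.26 and 0.20. None of 8 core photosynthesis genes and none of 11 sugar transport and starch genes passed, with medians of -0.05 and -0.04. The largest changes there were -0.44 ± 0.13 for SBPASE of the Calvin cycle and -0.75 for APL3 of starch synthesis. LHCB4.3 was the 1 of 3 antenna genes and the 1 of 2 photoprotection genes that fell, and COR15A the 1 of 5 cold and water deficit genes. THIC was the only thiamine gene measured by name. The senescence genes, 4 in number, lay between -0.02 and 0.06.

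**Figure D3:**
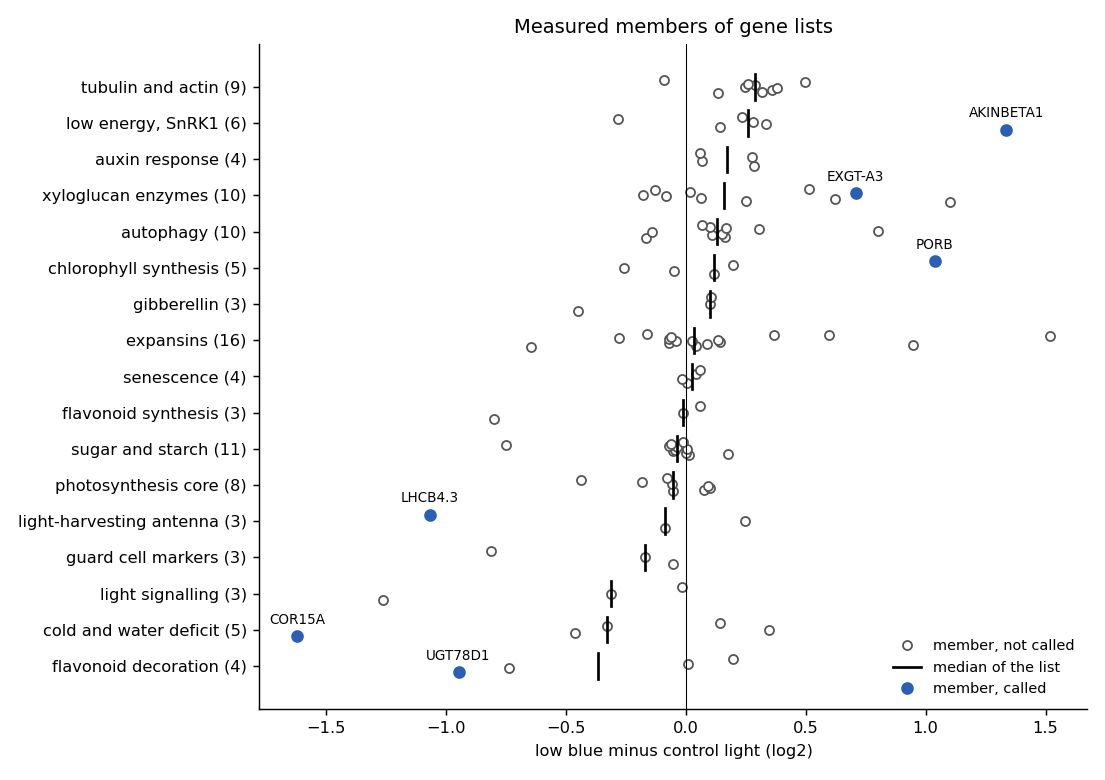
Log2 changes, low blue minus control light, of the measured members of the 17 gene lists with at least 3 of them (number in brackets). Filled circles passed the test and are named, open circles did not, and the vertical bars are the list medians, which run from -0.36 for flavonoid decoration to 0.29 for tubulin and actin around the median of 0.00 over all probe sets.

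The same treatment was also applied on top of low R:FR, which gives a second measure of low blue on arrays that the first did not use. Combined against low R:FR gave 102 called probe sets, 0.448% of all, 43 higher (0.189%) and 59 lower (0.259%). Of the 132 probe sets called against control light, 39 were called here too, all in the same direction, which is 29.5% of the 132 and 38.2% of the 102. In total 130 of the 132 had the same sign in both, against 58.1% of all probe sets. The 58 higher ones had a median change of 0.47 under low R:FR, and 57 of them were positive. The 74 lower ones had a median of -0.73, and 73 of them were negative. The medians against control light, which served to choose them, were 0.85 and -0.93. Across all probe sets the 2 sets of changes correlated at Pearson r = 0.52 and Spearman rho = 0.31, and at 0.62 and 0.50 over the 9795 with a mean of at least 2. Probe sets are not independent, and both values describe these arrays only. Leaving out control light replicate 1 gave the lowest r of the 12 fits without 1 array, 0.40.

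Of the 56 named genes 14 were called in both, 8 higher and 6 lower. AT1G06000 had 3.85, 4.14 and 4.25 in combined light, against 5.54, 5.82 and 5.52 in low R:FR, with no overlap (log2 change -1.55 ± 0.18, limma adjusted p = 0.000817). UGT78D1 had 4.67, 4.38 and 4.13 in combined light, against 5.84, 5.37 and 5.38 in low R:FR (-1.14 ± 0.20, 0.0128). LHCB4.3 had 5.19, 5.39 and 5.95 in combined light, against 6.4, 6.32 and 6.46 in low R:FR (-0.88 ± 0.16, 0.015). THIC had 3.88, 4.46 and 4.62 in combined light, against 5.18, 5.16 and 4.92 in low R:FR (-0.77 ± 0.15, 0.0261). All 4 therefore fell with low blue in either light. The decreases of AT3G24190 and AT3G51750 were called here as well (-1 and -0.70).

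Among the genes higher in both, EXGT-A3 had 7.32, 6.99 and 7.13 in combined light, against 6.34, 6.46 and 6.27 in low R:FR (log2 change 0.79 ± 0.12, limma adjusted p = 0.00365). CDF5 (AT1G69570) had 4.89, 4.51 and 4.44 in combined light, against 3.60, 3.67 and 3.26 in low R:FR (1.11 ± 0.16, 0.00365). Neither gene had overlapping groups. AT2G30930, AT2G27080, AT1G22330, AT2G36410, AT1G25230 and AT2G35880 were also higher in both, with changes here from 0.66 to 1.53. COR15A, BIC2, PORB, AKINBETA1 and BZIP61 kept their direction without passing, at -0.94, -0.68, 0.71, 0.76 and 1.01 (limma adjusted p from 0.0891 to 0.235). PDC2 had -0.03 ± 0.19 and AT4G27450 0.02 ± 0.16. The 2 probe sets of opposite sign were AT1G06060 (-0.08 ± 0.11) and the unnamed 253714_at.

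**Figure D4:**
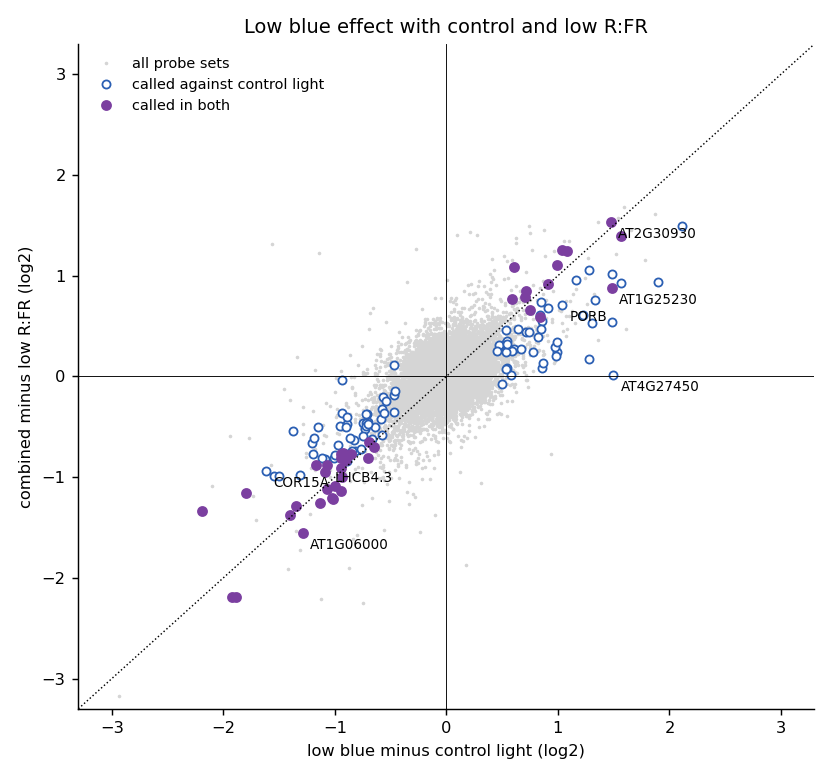
Low blue effect in the 2 red to far-red conditions. The horizontal axis is low blue minus control light and the vertical axis combined minus low R:FR (both log2), with grey points for all probe sets, open blue circles for those of the 132 called only against control light and filled purple circles for the 39 called in both. All but 2 of the 132 lie in the quadrants of equal sign, and AT4G27450 lies on the horizontal line at 0.02.

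A further 63 probe sets were called under low R:FR and not against control light, and 24 of them have 1 gene. The flavonoid genes CHIL and UGT78D2 were among them. CHIL had 3.68, 3.65 and 3.67 in combined light, against 5.09, 5.13 and 5.52 in low R:FR (log2 change -1.58 ± 0.31, limma adjusted p = 0.0284). UGT78D2 had 4.73, 5.07 and 4.46 in combined light, against 5.70, 5.85 and 5.85 in low R:FR (-1.05 ± 0.16, 0.0055). The groups lay well apart in both. Higher were XTH33 by 0.96 ± 0.17, XTH18 by 0.82 ± 0.12 and HAT2 by 0.91 ± 0.12 (limma adjusted p = 0.0118, 0.00365 and 0.00267), against 0.51, 0.25 and 0.22 without low R:FR. XTH33 and XTH18 were dim, with means over the 18 arrays of 1.77 and 1.49. XTH33, XTH18 and EXGT-A3 were 3 of the 10 measured xyloglucan enzymes, while 0 of 16 expansins, 0 of 4 auxin response genes and 0 of 9 tubulin and actin genes were called in combined against low R:FR. AT2G27420 (-2.21 ± 0.34) and AT5G05250 (-1.87 ± 0.29) had the largest decreases of the 24 with 1 gene. LPR1, a ferroxidase of the phosphate starvation response in roots, fell by 0.91.

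Being called in 1 condition and not in the other does not show a difference, so the interaction of the 2 treatments was tested over all probe sets. None passed (0.0%), with limma in the fit on all 18 arrays, while 811 (3.57%) had an unadjusted p under 0.05. The closest was AT4G27450, which had 1.38, 1.65 and 1.29 in combined light, against 1.26, 1.41 and 1.6 in low R:FR. Its 3 low blue arrays lay above all the other light arrays (interaction -1.48 ± 0.22, limma adjusted p = 0.0962). In the fit on the 12 light arrays alone AT5G05250 was the 1 probe set called (interaction -2.05, limma adjusted p = 0.00938), and AT4G27450 had 0.0886 there. With an intensity trend AT4G27450 was the 1 probe set called (0.0366), and with a replicate block it was AT5G05250 (0.0414).

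Low R:FR on its own was measured against the same control light arrays, so its values are given beside those of low blue and not counted as support. Of the named genes that fell in low blue, 3 were called higher in low R:FR, a comparison that called 0.866% of all probe sets. COR15A had a log2 change of -1.62 in low blue and 1.13 ± 0.22 in low R:FR (limma adjusted p = 0.0199), AT3G56290 -1.54 and 1.82 ± 0.24 (0.000924), and AT3G57020 -0.96 and 1.24 ± 0.20 (0.00455). PORB went the other way, with 1.04 in low blue and -1.11 ± 0.22 in low R:FR (0.0183). These 4 genes were picked for being called with opposite signs. The direct comparison of low blue with low R:FR, described below, covered them with all other probe sets. Because of how they were picked, their values there are not given as a result. Over the arrays of low R:FR, COR15A lay at 8.06, 7.91 and 8.06 and PORB at 4.96, 4.25 and 4.67, beyond both low blue and control light.

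The other 4 named genes called in both comparisons had the same sign in each. BZIP61 had 1.49 in low blue and 1.38 ± 0.28 in low R:FR (limma adjusted p = 0.0272), CDF5 (AT1G69570) 0.99 and 1.34 ± 0.16 (0.000531), AT1G23030 0.53 and 0.58 ± 0.10 (0.00741) and AT1G48750 -0.75 and -0.76 ± 0.16 (0.0317). These 8 are the named genes called in both and do not stand for the 132, of which 76 have no name. Low blue was also set directly against low R:FR, on the same low blue arrays, and this comparison called 998 probe sets, 4.39% of all. The direct differences of BZIP61, CDF5 (AT1G69570), AT1G23030 and AT1G48750, 0.11, -0.35, -0.05 and 0.01, were not called, and the 95% interval for BZIP61 reached from -0.49 to 0.71. These genes were picked for having the same sign, so small differences do not show that the light treatments act alike on them. For UGT78D1 and THIC low R:FR left changes of -0.02 ± 0.20 and 0.01 ± 0.15, and low blue lay below low R:FR (-0.93 and -0.95). In low blue AKINBETA1 and BIC2 differed from low R:FR by 2.09 ± 0.22 and -1.55 ± 0.19. UGT78D1, THIC, AKINBETA1 and BIC2 had been chosen by their low blue arrays, which enter this comparison as well. Their differences are therefore a description, given without p-values.

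Plants in the canopy, which receive light filtered by neighbours, were compared with single plants of 37 d on arrays that share none with the light experiment. The canopy called 968 probe sets, 4.26% of all. Among the 132 low blue probe sets, 75 were called in the canopy, 74 in the same direction, which is 56.8% of the 132 and 7.75% of the 968. A same sign was found for 121 of the 132, or 91.7%, against 57.8% of all probe sets. Over all probe sets the canopy and low blue changes correlated at Pearson r = 0.48 and Spearman rho = 0.29. Of the 56 named genes 28 were called in the same direction.

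Among the genes higher in low blue, EXGT-A3 had a canopy change of 1.62 ± 0.12 (limma adjusted p = 1.2e-06) beside 0.71 in low blue, AT5G11070 2.29 beside 1.23, BZIP61 2.13 beside 1.49, AKINBETA1 1.69 beside 1.34 and CDF5 (AT1G69570) 1.31 beside 0.99. Among those lower, AT5G53420 had -2.22 beside -0.93, AT1G06000 -2.06 beside -1.29, LHCB4.3 -1.42 beside -1.07, UGT78D1 -1.01 beside -0.95, BIC2 -0.93 beside -0.97 and THIC -0.86 beside -0.95. Cold, chlorophyll and other genes were not called in the canopy: COR15A had -0.29 ± 0.22, PORB -0.19 ± 0.22, AT3G57020 -0.05 ± 0.20, AT2G27080 -0.11 ± 0.20 and AT4G27450 0.45 ± 0.16. Whether the canopy and low blue changes of a gene differ was not tested, and the plants also differed in age and in the time spent under each condition.

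**Figure D5:**
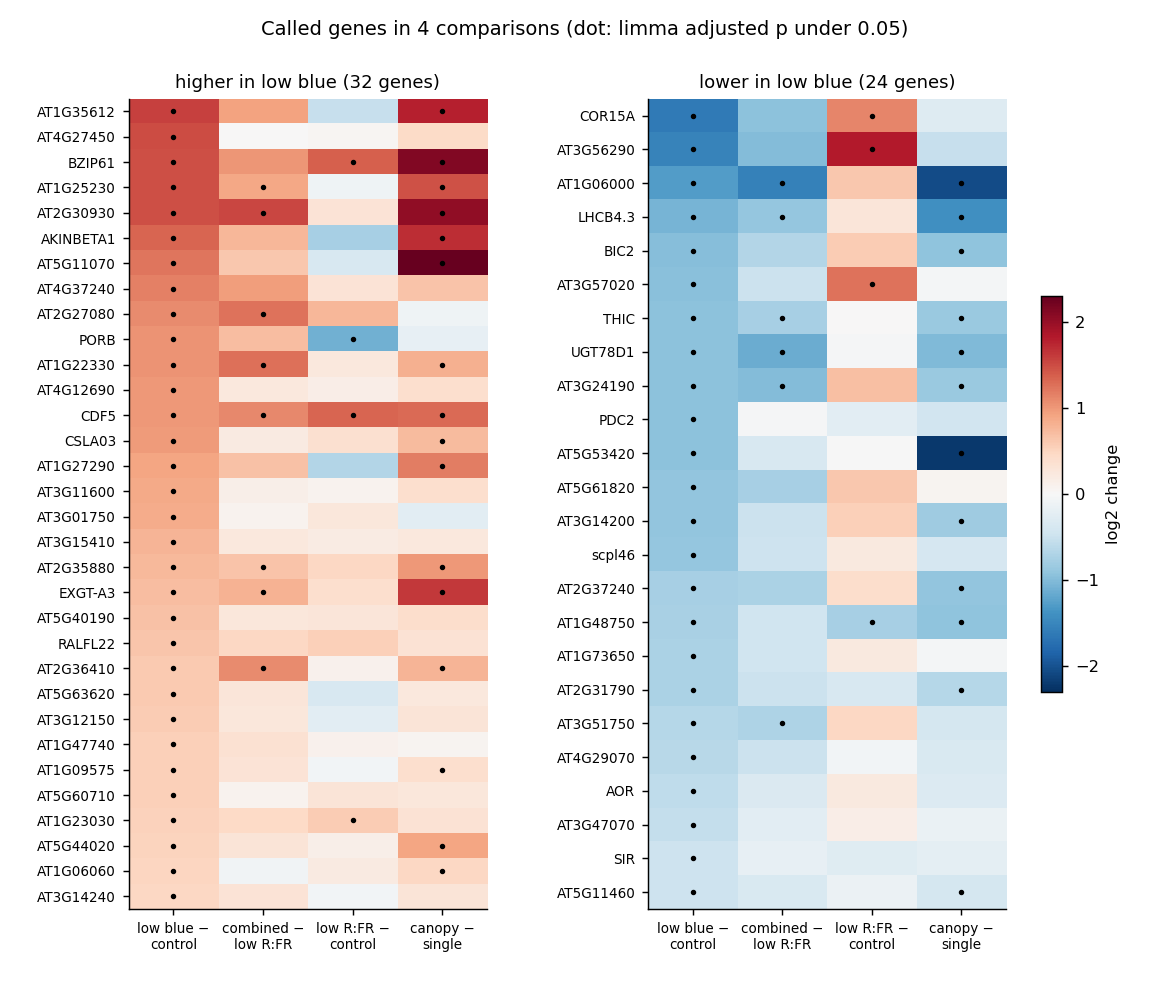
Changes of the 56 named genes called in low blue, 32 higher (left) and 24 lower (right), in 4 comparisons. Colours give the log2 change and dots an adjusted p under 0.05. The comparisons of low blue and of low R:FR against control light share the control light arrays. The group means of the combined and canopy comparisons share no array with the first, but all use the same estimate of spread. COR15A, AT3G56290, AT3G57020 and PORB are called with opposite signs in low blue and low R:FR, and further genes, such as AKINBETA1 and BIC2, have opposite signs without being called in low R:FR.

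Markers of single cell types were few, and none was called. The mesophyll gene RCA, rubisco activase, was among the brightest on the arrays, with a log2 change of -0.06 ± 0.09 (95% interval -0.24 to 0.13). Of 5 guard cell markers 3 were measured, and only 1 of these had a mean of at least 2. Their log2 changes ran from -0.81 to -0.05, with a median of -0.17. Under low R:FR the median low blue change of the 3 markers was 0.05. The summed log2 values of the 3 ran from 4.76 to 5.58 in low blue, against 5.81 to 6.69 in control light. The cation exchanger gene CHX20 differed most among them. It had 2.51, 3.08 and 1.92 in low blue, against 2.78, 3.16 and 3.99 in control light, which overlapped (-0.81 ± 0.36, limma adjusted p = 0.486). The part of guard cells in the changes above was not tested. The phloem gene SWEET11 and the trichome gene TRY lay between 1.06 and 1.45 on all 6 arrays, and the root gene PYK10 between 0.70 and 2.22, near the lower end of the array. The lists for epidermis, xylem and meristem had no named probe set.

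The arrays of each group resembled each other, with correlations over probe sets from 0.978 between control light replicates 1 and 3 to 0.994 in low R:FR. Control light replicates 1 and 3 also had the lowest weights of the 18 arrays when array quality was estimated from the fit, 0.69 and 0.56, against 1.80 for replicate 2. Without both of them 18 probe sets were called in place of 132, and the counts without 1 array ran from 30 without control light replicate 2 to 130 without low blue replicate 2.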

How the data were processed

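The authors deposited log2 expression values, 1 per probe set, summarised with RMA per the submitters' processing notes. Its version, and which arrays were normalized together, is not given in the sources. RMA compresses differences of dim transcripts, so fold changes of genes near the floor are understated. Probe sets were named through the platform annotation and RefSeq's gene table (TAIR10.1). A single gene was given for 13513 of the 22746 probe sets tested (13350 genes), while 503 with several genes and 8730 that the table lacks stay unnamed. For a gene with several probe sets the brightest was used. The names BIC2 and CDF5 were added by hand to their loci.

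Group means were estimated over all 18 arrays with limma 3.58.1 (R 4.3.3), without covariates, and variances were moderated by eBayes, with 4.41 prior added to 12 residual degrees of freedom. Two-sided p-values were corrected by the Benjamini-Hochberg method over all probe sets tested. The value after ± is limma's standard error. The fit was tested on simulated data. The number of arrays limits the precision. Named are called probe sets of 1 gene, the list members described and, with values per array, the 10 largest changes each way. The lists and the rule were chosen with earlier results of these data known. Other genes called under low R:FR alone and the unnamed 253174_at and 253714_at fall outside that rule and were chosen after their values were seen. From the lists 2 symbols were dropped because the gene table gives them to another gene (CHI, a chitinase, and FDH, formate dehydrogenase). Promoter sequences were not analysed here. Alternatives were array weights, an intensity trend, the 12 light or the 6 compared arrays alone, a mean of at least 2, quantile normalization, a replicate block and leaving out each array. Samples were not paired by replicate number in the main fit.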

Additional observations from a re-analysis of the deposited data

How the results depend on the processing

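Of 132 low blue calls, 1 was made with the 6 compared arrays alone and 18 without control light replicates 1 and 3, an alternative chosen after seeing the data. Without 1 array the count ran from 30 to 130, lowest without control light replicate 2. The cause of these shifts, other than fewer samples, was not tested. The other settings, the replicate block included, gave 102 to 184. Low blue under low R:FR gave 200 calls with array weights in place of 102, and 52 to 68 without 1 array. Low blue directly against low R:FR gave 569 to 960 without 1 array and 843 to 1173 under the other settings, in place of 998. The interaction gave 1 call in place of 0 with an intensity trend (AT4G27450), on the 12 light arrays alone and with a replicate block (AT5G05250 in both). The correlation of both low blue effects, 0.52, was 0.62 at a mean of at least 2 and ran from 0.40 to 0.56 without 1 array. The same-sign count of called probe sets ran from 16 of 18 to 30 of 30 over all settings.

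Replicate numbers showed no pairing of low blue with control light: the deviations of same-numbered arrays correlated at -0.18, 0.02 and -0.40. For control light and combined they correlated at 0.28, 0.04 and 0.33. Over all pairs of light groups the median was 0.05 for same numbers and -0.03 for different numbers. Pairing across the light experiment was not tested further. With the replicate block 102 probe sets were called in low blue and 105 under low R:FR.

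Uncalled genes with changes near 0 took either sign. Without 1 array UGT78D3 ran from -0.0386 to 0.0334, BAN from -0.0121 to 0.169, DFR from -0.0679 to 0.0419, SWEET11 from -0.127 to 0.0144, TRY from -0.0806 to 0.0554 and WRKY53 from -0.199 to 0.491. BAN had -0.0214 without control light replicates 1 and 3, and TRY 0.000838 with quantile normalization.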

Other observations

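PORB and AT4G27450, both higher in low blue, are neighbours on chromosome 4 in the RefSeq gene table (TAIR10.1). They were the 1 pair called together among 5873 adjacent pairs with both genes measured. Under low R:FR the low blue change of PORB was 0.71 ± 0.22 and that of AT4G27450 0.02 ± 0.16.

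Among the 132 called probe sets, those without a gene name held the largest changes. The unnamed 246114_at had 5.02, 3.73 and 4.28 in low blue, against 2.04, 2.28 and 2.38 in control light (log2 change 2.11 ± 0.36, limma adjusted p = 0.013), and 252415_at had 5.24, 4.81 and 5.10 in low blue, against 3.54, 2.66 and 3.27 in control light (1.89 ± 0.26, 0.00313). Among those lower, 249774_at had 3.13, 2.77 and 3.26 in low blue, against 5.57, 5.50 and 4.66 in control light (-2.19 ± 0.23, 0.000358), and 252123_at had 2.74, 3.14 and 2.95 in low blue, against 5.25, 5.09 and 4.25 in control light (-1.92 ± 0.24, 0.00227). The 2 lower ones were called under low R:FR and in the canopy as well.

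A few defence genes, chosen after their values were seen, varied more within the groups than between them. The defensin gene PDF1.2 had 8.83, 5.59 and 3.03 in low blue, against 4.44, 8.87 and 8.83 in control light (-1.56 ± 1.42, limma adjusted p = 0.832). The chitinase gene CHI had 5.71, 3.07 and 1.02 in low blue, against 2.08, 5.13 and 6.18 in control light (-1.2 ± 1.26, 0.868). BCAT4, of glucosinolate synthesis, had 4.85, 4.59 and 1.13 in low blue, against 4.22, 6.01 and 6.65 in control light (-2.1 ± 0.95, 0.498). In all 3 genes low blue replicate 3 and control light replicate 1 were the lowest of their groups.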
